A study of Saccharomyces cerevisiae with 12 samples.

Results

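The transcriptome of dividing budding yeast was set against that of quiescent yeast, in Saccharomyces cerevisiae strain pJD47. Log growth cells, represented by 3 libraries, are labelled as growing logarithmically. Per the growth protocol, cultures came from single colonies on synthetic complete plates with 2% glucose and were grown at 30°C, from an optical density at 600 nm (OD600) of 0.2 to 1. Quiescent cells, also represented by 3 libraries, are labelled as deprived of glucose: dividing cultures had been spun down and kept for 7 days in water with 10 mM D3-acetate, an acetate labelled with deuterium. The 6 libraries are part of a time course of 12, in which other cells were taken 30 min and 240 min after return to liquid medium, and the 240 min libraries are used at the end. All groups share the strain, and no mutant or further agent is named. The labels call the libraries biological replicates without saying whether they came from separate cultures throughout, so the p-values measure the spread between these libraries, which may in part be technical.

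All genes of the deposited table with a mean of at least 10 over the 12 libraries were taken, which were 5871 of 6120 genes. Of the others, 124 were at 0 in every library and 125 had lower means. There were 11 genes with means of 9 to 10, just below the limit, and 9 with means of 10 to 11, just above it. Values are normalised read counts, that is, reads per gene divided by 1 size factor per library. Where 3 values are given for a group they belong to replicates 1, 2 and 3, and a log2 change is log growth minus quiescent on log2(value + 1) ± its standard error. The test was limma's moderated test on the 6 libraries, two-sided, with Benjamini-Hochberg adjustment over the 5871 genes. A gene is said to have risen or fallen in log growth when its adjusted p was under 0.05. Positions are those of the R64 reference annotation.

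A yeast cell with glucose ferments it to ethanol and devotes much of its transcription to ribosomes and to the enzymes of glycolysis, while glucose represses the genes for other carbon sources. A cell left with acetate must turn it into acetyl-CoA, pass it through the glyoxylate cycle and build sugars by gluconeogenesis. Starved cells leave the division cycle, make fewer ribosomes, store glycogen and trehalose and switch on stress genes under the transcription factors Msn2 and Msn4.

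Depth differed between the groups. Log growth libraries held 13480102 to 15100323 recovered reads and quiescent libraries 1195233 to 5220494. One read was worth 0.676 to 0.863 units in log growth, but 1.46 and 1.70 units in quiescent replicates 2 and 3 and 6.97 units in quiescent replicate 1. A count of 0 in that library allows a value of up to 20.9 units (3 reads, covering counting error only). Log growth replicate 1 stood apart from log growth replicates 2 and 3. It differed from their mean by a median of 0.639 on the log2 scale, while they differed from each other by 0.209. In quiescent cells, the same distances were 0.387 and 0.130. The first principal component (75.9% of the variance) separated the groups, and the second (16.4%) separated replicate 1 from replicates 2 and 3.

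Stress and reserve genes were among those that set the log growth libraries apart. HSP12, a small membrane-protecting stress protein and a common marker of starved cells, had 1297, 38799.9 and 22735 in log growth, against 27574, 23778 and 29459 in quiescent cells. Replicate 1 of log growth was far below the quiescent libraries, replicates 2 and 3 were near their level, and the groups overlapped (adjusted p = 0.343). HSP30, a stress-induced membrane protein, had 825, 33848 and 38416 in log growth, against 2162, 4384 and 3768 in quiescent cells. The gene of the disaggregase Hsp104 had 8297, 46525 and 50233 in log growth, against 8041, 13739.7 and 11304 in quiescent cells. The high-affinity glucose transporter gene HXT7, which high glucose represses, had 526, 7234 and 7536 in log growth, against 907, 1636 and 1852 in quiescent cells. For HSP30, HSP104 and HXT7, log growth replicates 2 and 3 lay above every quiescent library (adjusted p = 0.332, 0.153 and 0.35 with all 6 libraries). HSP12, HSP30, HSP104 and HXT7 were chosen after their values were seen. The share of their sequence that occurs elsewhere in the genome was not examined, so the assignment of their reads is unchecked. Ribosomal protein and glycolysis genes, in contrast, were high in all 3 libraries labelled log growth. For many gene lists, counts are also given without log growth replicate 1 and with each library scaled to its total count, and where none are given they may still differ.

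Of the 5871 genes, 1339 were higher and 1338 lower in log growth, each 22.8% of the genes tested, so 45.6% were called. The counts of every gene list below are to be read beside these shares. At least 2-fold changes were called for 1109 genes upward (18.9%) and 1154 downward (19.7%). The decreases reached further: 191 genes fell at least 8-fold and 42 at least 32-fold, while 42 rose at least 8-fold and 0 rose at least 32-fold (1 rose at least 16-fold). The 3 libraries a side did not overlap for 3466 genes (59.0%). The median log2 change of all genes was 0.050. Scaling each library to its total count moved that median by -0.47, to -0.42, and the split became 758 higher and 2054 lower. No spike-in is named in the labels, so changes are relative to the other genes of a library. In bulk samples, fewer cells of a kind and less RNA per cell cannot be told apart. Without log growth replicate 1 the calls were 1764 higher and 1728 lower, and 2648 of the 2677 genes called with all libraries were among them. Of the 2677, 2675 had the same sign within replicate 1 and within replicates 2 and 3. The calls used these same libraries, and 2665 of the 2677 had no overlap between the groups. Both counts thus follow largely from the calls and are no independent support. The plot of group means shows the longer reach of the decreases.

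**Figure D1:**
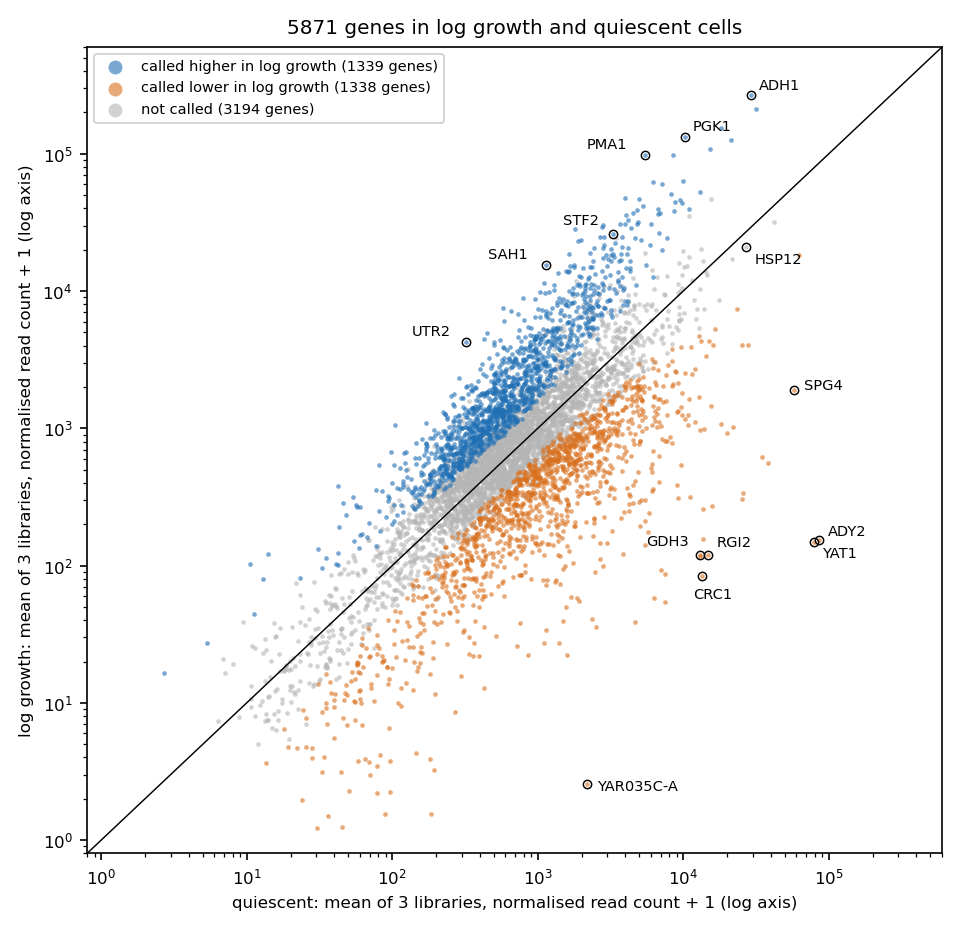
Mean normalised read count + 1 of each of 5871 genes in log growth (vertical) and quiescent cells (horizontal), both on log axes, n = 3 libraries each. The line marks equal values, colours mark genes called higher (1339) or lower (1338), and circled genes are named in the text. The genes lower in log growth extend farther from the line than those that are higher.

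The largest increase was that of PMA1 (YGL008C, chromosome VII, 479910 to 482666, minus strand), the plasma membrane proton pump that drives nutrient uptake. It had 60454, 113549 and 118725 in log growth, against 7071, 4558 and 4765 in quiescent cells (log2 4.12 ± 0.44, adjusted p = 0.000341). Every log growth library exceeded the highest quiescent one at least 8-fold. MRH1 (YDR033W, chromosome IV, 508147 to 509109, plus strand), a plasma membrane protein of the Hsp30 family, had 20793, 29988 and 34200.0 in log growth, against 2127, 1479.8 and 1786 in quiescent cells (log2 3.96 ± 0.32, adjusted p = 0.00011). Its relative YRO2 had 2517, 9958 and 10204 in log growth, against 369.6, 676 and 688 in quiescent cells (log2 3.51 ± 0.55, adjusted p = 0.0016; log2 4.18, adjusted p = 4.59e-05 without log growth replicate 1). UTR2, a transglycosylase that links chitin to glucan in the cell wall, had 6247, 2663 and 3799.6 in log growth, against 530.0, 236 and 199 in quiescent cells (log2 3.76 ± 0.44, adjusted p = 0.000481). SAH1, the hydrolase that clears S-adenosylhomocysteine left by methylation reactions, had 19814, 13232 and 13044 in log growth, against 1409, 974 and 1047 in quiescent cells (log2 3.74 ± 0.30, adjusted p = 0.000101). These 5 genes showed no overlap between the groups, which the rule for choosing them required. The glycolytic genes PGK1 and CDC19, the transketolase gene TKL1, the Ran-binding protein gene YRB1, the acid phosphatase gene PHO3, the ribosome-bound Hsp70 gene SSB1 and the ribosomal protein genes RPS1A and RPS6A had log2 changes of 3.48 to 3.68 and adjusted p of 6.98e-05 to 0.000471. Of all 75-base stretches of SSB1 and RPS6A, 36.3% and 39% occur elsewhere in the genome, so their counts are uncertain.

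Low counts stood behind another pair among the 15 largest increases. MCO14 (YHL018W) had 48, 130.2 and 125 in log growth, against 0, 13.1 and 15.3 in quiescent cells, and BSC1 (YDL037C) had 71.7, 186 and 102 in log growth, against 0, 20.4 and 18.7 in quiescent cells. Both were at 0 in quiescent replicate 1, where 1 read would have given 6.97. Their log2 changes of 3.93 and 3.90 (adjusted p = 0.0148 and 0.0203) were 2.62 and 2.44 without that library. They no longer passed without log growth replicate 2 (adjusted p = 0.0503 and 0.0676) or without log growth replicate 3 (adjusted p = 0.0517 and 0.0524).

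Of the 15 largest decreases, 5 belonged to genes for the use of acetate. ADY2 (YCR010C, chromosome III, 132273 to 133124, minus strand), a plasma membrane acetate transporter, had 64.9, 212 and 179.5 in log growth, against 89047, 76618 and 92923 in quiescent cells (log2 -9.30 ± 0.44, adjusted p = 1.78e-05). YAT1 (YAR035W, chromosome I, 190193 to 192256, plus strand), the carnitine acetyltransferase of the outer mitochondrial membrane, had 54.1, 255 and 136 in log growth, against 99989, 62757 and 73290.4 in quiescent cells (log2 -9.27 ± 0.52, adjusted p = 2.56e-05; log2 -8.69, adjusted p = 7.38e-06 without log growth replicate 1). ADY2 and YAT1 were the 2 genes with the most reads in each quiescent library, taking 1.01% to 1.19% and 0.825% to 1.20% of them. Per base of gene length, ADY2 ranked 3 of all genes in each quiescent library. CRC1, the carrier that brings acetylcarnitine into the mitochondrion, had 50.1, 104 and 94.3 in log growth, against 17727, 10779 and 11691 in quiescent cells (log2 -7.36 ± 0.34, adjusted p = 1.78e-05). SFC1, which exchanges succinate from the glyoxylate cycle for fumarate, had 28.4, 64.7 and 66.6 in log growth, against 11221, 5024 and 6113 in quiescent cells (log2 -7.11 ± 0.42, adjusted p = 2.97e-05). Malate synthase (MLS1), an enzyme of that cycle, had 60.9, 105 and 93.5 in log growth, against 13013, 4629 and 4941 in quiescent cells (log2 -6.29 ± 0.43, adjusted p = 5.65e-05). In all 5, the groups were separated more than 10-fold, and replicate 1 of log growth was the lowest library.

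Genes of other roles stood among the largest decreases too. RGI2, a protein of energy metabolism on respiratory carbon sources, had 14.9, 161 and 179.5 in log growth, against 16528, 13365 and 14680.2 in quiescent cells (log2 -7.58 ± 0.83, adjusted p = 0.000365). Its change was log2 -6.43, adjusted p = 2.4e-06 without log growth replicate 1 and log2 -8.19, adjusted p = 0.00104 without log growth replicate 3. The peroxisomal thiolase POT1 had 57.5, 151 and 142 in log growth, against 13376, 12412 and 13191 in quiescent cells (log2 -6.91 ± 0.37, adjusted p = 2.56e-05), and the peroxisomal catalase CTA1 had 258, 358 and 391 in log growth, against 30301, 21684 and 24808 in quiescent cells (log2 -6.26 ± 0.28, adjusted p = 1.78e-05). GDH3, a glutamate dehydrogenase that uses NADPH, had 84.6, 199 and 72.6 in log growth, against 15439.8, 10558 and 13122 in quiescent cells (log2 -6.90 ± 0.39, adjusted p = 2.56e-05), and the proline permease PUT4 had 41.3, 79.4 and 50.9 in log growth, against 9379.6, 4420.5 and 5146 in quiescent cells (log2 -6.74 ± 0.36, adjusted p = 2.56e-05). ADH2, the alcohol dehydrogenase that turns ethanol back into acetaldehyde, had 159, 429 and 319 in log growth, against 41103, 15314 and 19578 in quiescent cells (log2 -6.37 ± 0.48, adjusted p = 7.82e-05). PHO89, a cotransporter of sodium and phosphate, had 28.4, 55.2 and 20.2 in log growth, against 2643, 2490.2 and 2446 in quiescent cells (log2 -6.27 ± 0.36, adjusted p = 2.56e-05). No library of log growth reached the lowest quiescent library in any of these 7 genes, which the rule for choosing them required.

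Another 3 of these 15 decreases are uncertain. YAR035C-A (YAR035C-A, chromosome I, 192337 to 192417, minus strand) had 1, 2 and 3 reads in log growth, against 360, 1230 and 1287 reads in quiescent cells. From reads pooled per group, it was 1350-fold lower in log growth, with a 95% counting interval of 617-fold to 3670-fold (exact binomial). That interval leaves out the spread between libraries. The test used for the other genes gave log2 -9.77 ± 0.34 (adjusted p = 1.06e-05). The gene lies 80 bases past the end of YAT1 on the opposite strand, and no source used here says if strand was used in counting, so its reads cannot be told apart from those of a longer YAT1 transcript. BI4, an intron-encoded maturase that lies within the mitochondrial gene COB, had 0, 1 and 1 reads in log growth, against 14, 147 and 138 in quiescent cells. SNR14, the U4 small nuclear RNA, had 25, 41.4 and 47.1 in log growth, against 8173, 2977 and 2777 in quiescent cells (log2 -6.76 ± 0.45, adjusted p = 5.58e-05). U4 is normally made without a poly(A) tail, and the libraries are labelled as polyA RNA, so they hold an unknown share of it.

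**Figure D2:**
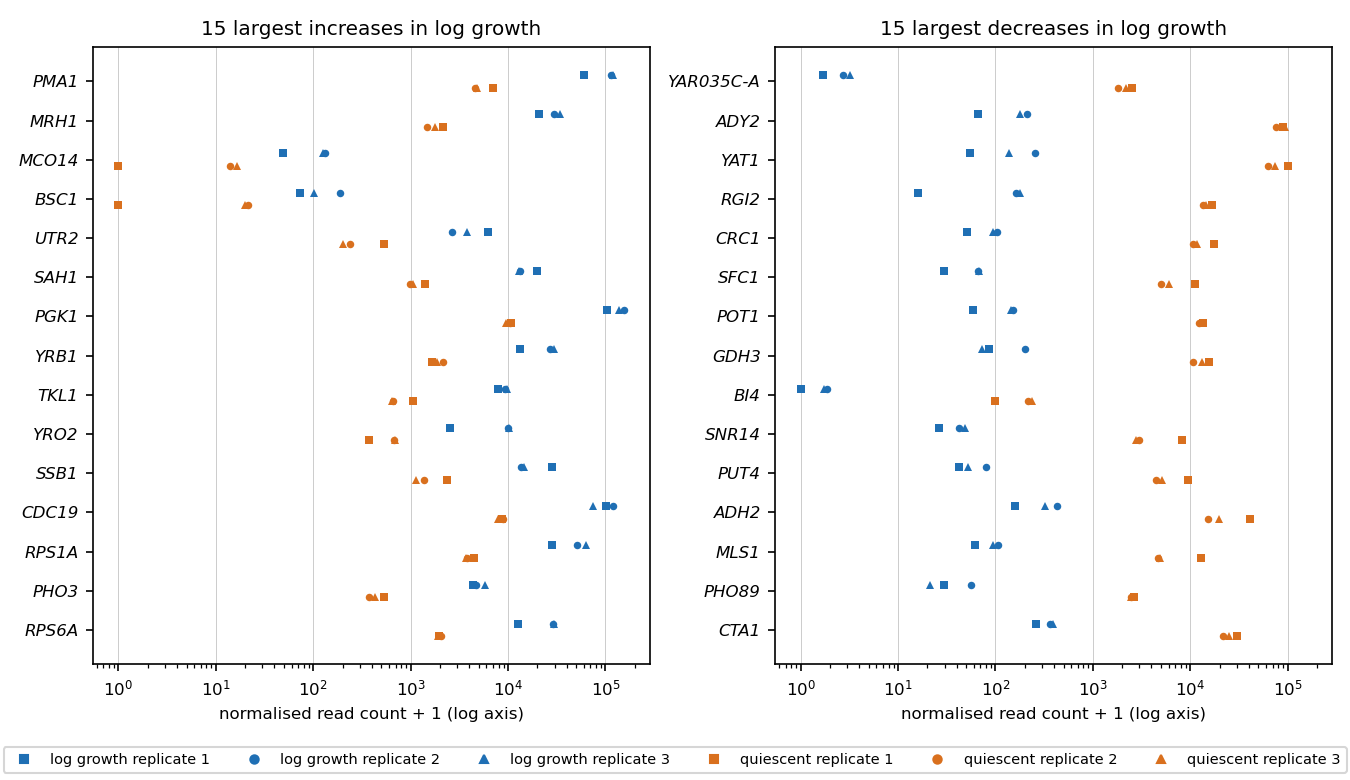
Normalised read count + 1 (log axis) of the 15 largest increases (left panel) and the 15 largest decreases (right panel) in each library, log growth in blue and quiescent in orange, with a symbol for each replicate number. In every row the 3 log growth points lie on 1 side of the 3 quiescent points, which the rule for choosing these genes required. MCO14 and BSC1 are at 0 in quiescent replicate 1.

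Ribosomal protein genes rose together. Of 57 genes for small subunit proteins, 51 rose, 0 fell and 6 did not pass, with a median log2 change of 2.07. Of 81 for large subunit proteins, 58 rose, 0 fell and 23 did not pass (median 1.88). The background over all genes was 22.8% called higher. Small subunit genes held 8.67% to 9.79% of the reads in log growth libraries, against 1.97% to 2.71% in quiescent libraries, and large subunit genes 8.29% to 10.1% of the reads in log growth libraries, against 2.44% to 3.09% in quiescent libraries. RPS1A had 28048, 51576 and 63543 in log growth, against 4498, 3756 and 3718 in quiescent cells (log2 3.50 ± 0.40, adjusted p = 0.000438), and RPL33B had 4394, 8169.8 and 7778 in log growth, against 753, 733 and 695 in quiescent cells (log2 3.17 ± 0.30, adjusted p = 0.000198). RPL27A and its copy RPL27B had log2 changes of 3.11 and 3.07 (adjusted p = 0.00127 and 0.000185). For RPS8B (log2 3.06), 73.9% of stretches as long as a read occur elsewhere, so reads cannot be assigned to it with certainty. RPS18B and RPL40B had log2 changes of 3.08 and 3.09. In RPS18B, the lowest log growth library (16799) was above the highest quiescent library (3038).

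The machinery of translation followed. All 20 cytosolic tRNA synthetase genes rose (median 2.00), of which SES1, which charges serine tRNA, had 12662, 14921 and 17899.7 in log growth, against 1764, 1596 and 1663 in quiescent cells (log2 3.16 ± 0.27, adjusted p = 0.000134). THS1, for threonine, had 12573, 18541 and 26063 in log growth, against 2057, 2468 and 2315 in quiescent cells (log2 3.00 ± 0.34, adjusted p = 0.000422). With total-count scaling, 18 and 0 were called higher and lower. Of 41 initiation, elongation and termination factors, 34 rose, 2 fell and 5 did not pass (median 1.73). RPG1, the largest subunit of initiation factor eIF3, had 5359, 3655 and 3671 in log growth, against 795, 405 and 295 in quiescent cells (log2 3.19 ± 0.38, adjusted p = 0.000524). STM1, which clamps idle ribosomes in starved cells, had 31964, 16029 and 14108 in log growth, against 3222, 2637 and 2581 in quiescent cells (log2 2.79 ± 0.38, adjusted p = 0.000843). HEF3, a second gene for elongation factor 3, went the other way with 256, 309 and 303 in log growth, against 7211, 3441 and 4261 in quiescent cells (log2 -4.03 ± 0.31, adjusted p = 7.99e-05). The cytosolic ribosome differed here from the mitochondrial one: of 69 mitochondrial ribosomal protein genes, 16 rose, 7 fell and 46 did not pass (median 0.32), and with total-count scaling the median changed sign and 8 and 13 were called higher and lower. Those counts were 10 and 3 without log growth replicate 3 or quiescent replicate 3, and 24 and 12 without log growth replicate 1. MRPL32 had 607, 924 and 1138 in log growth, against 139, 201 and 249 in quiescent cells (log2 2.17 ± 0.33, adjusted p = 0.00129), and MRPL28 had 329, 139 and 128 in log growth, against 1074, 535 and 567 in quiescent cells (log2 -1.93 ± 0.43, adjusted p = 0.00749), in opposite directions.

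Genes that build ribosomes rose less than the ribosomal proteins themselves by their median. Of 166 biogenesis factors, 89 rose, 6 fell and 71 did not pass (median 1.00), and the counts were 93 and 12 without log growth replicate 1, and 48 and 11 with total-count scaling. Between 1 and 3 fell when any other library was left out. The median was 1.58 within replicate 1 and 0.66 within replicates 2 and 3. GAR1, a core protein of the particles that direct pseudouridine formation, had 6132, 7785 and 8261 in log growth, against 907, 1104 and 1015 in quiescent cells (log2 2.87 ± 0.25, adjusted p = 0.000142). NSR1, the yeast nucleolin, had 8612, 6234 and 6962 in log growth, against 1283, 968 and 939.8 in quiescent cells (log2 2.77 ± 0.26, adjusted p = 0.00021). TSR2, which escorts a ribosomal protein to the assembling subunit, had 994, 2013 and 2122 in log growth, against 181, 309 and 262 in quiescent cells (log2 2.72 ± 0.36, adjusted p = 0.000731), and PWP1, a 60S assembly factor, had 3351, 2034 and 2857 in log growth, against 530.0, 455 and 434 in quiescent cells (log2 2.51 ± 0.26, adjusted p = 0.000301). Lack of overlap between the groups was required for these 4 to be named. Of 25 genes for subunits of RNA polymerases I and III, which make ribosomal and transfer RNA, 15 rose, 1 fell and 9 did not pass (median 1.16). RPA135, the second largest subunit of polymerase I, had 3336, 2758 and 3429 in log growth, against 599.7, 956 and 802 in quiescent cells (log2 2.03 ± 0.26, adjusted p = 0.000666). Of 7 subunits found only in RNA polymerase II, 1 rose, 0 fell and 6 did not pass (2 and 3 without log growth replicate 1, and 1 and 1 with total-count scaling). The riser was RPB9 (log2 1.81, adjusted p = 0.00523). Their median was -0.27 and their mean 0.078.

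Short elements known from the promoters of ribosome biogenesis genes are printed to show the letters they share. The window was 250 bases before to 50 bases after the annotated start of each gene, both strands were searched, and a promoter counted once. The element RRPE was searched as AAAATTT and PAC as CGATGAG. RRPE was in 94.0% and PAC in 63.9% of biogenesis promoters, against 23.1% and 6.99% of 6020 promoters of all protein-coding genes. Among genes called higher at least 2-fold the shares were 37.2% and 10.8%, and among genes called lower at least 2-fold they were 14.9% and 3.66%. Ribosomal protein promoters held RRPE in 29.8% (small subunit) and 30.9% (large subunit). RRPE was not confined to the biogenesis list. It was in 65.9% of translation factor promoters. Its shares were larger still in the promoters of cytosolic tRNA synthetases and of RNA polymerase I and III subunits, though below that of the biogenesis list. Stretches of 30 bases around the match nearest the gene's start in 4 named biogenesis genes and in the first 2 of the largest increases that hold one are given 5′ to 3′ on the gene's strand, from R64, with the match in capitals (AAATTTT is the RRPE core read from the other strand).
GAR1, chrVIII:283417-283446, minus strand, RRPE: ttttgtagtgaaAAATTTTtcgagatgagg
NSR1, chrVII:807810-807839, minus strand, RRPE: tcgcaagaacgaAAATTTTcaatccaatat
TSR2, chrXII:1006335-1006364, plus strand, RRPE: gaaatctgcgaaAAATTTTtatagtgataa
PWP1, chrXII:543822-543851, plus strand, PAC: aaaaatttgtctCGATGAGctgagatgagt
PMA1, chrVII:482820-482849, minus strand, RRPE: aacctcgttgatAAATTTTttctttaacaa
SAH1, chrV:237279-237308, minus strand, RRPE: gaaaaagaaagaAAATTTTcagaggaaaaa
The match says only that these letters are present. PMA1 and SAH1 share the element with the biogenesis genes and are not part of that list. Of the 15 largest increases, only PMA1, SAH1 and SSB1 hold RRPE, and none holds PAC.

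Glycolysis genes rose more than any other list by their median. Of 20 genes, 15 rose, 2 fell and 3 did not pass (median 2.43), and the list held 7.53% to 10.5% of the reads in log growth libraries, against 2.6% to 2.63% in quiescent libraries. PGK1, phosphoglycerate kinase, had 103599, 156879 and 138822 in log growth, against 10628, 10569 and 9496 in quiescent cells (log2 3.68 ± 0.43, adjusted p = 0.000469). CDC19, the main pyruvate kinase, had 100632, 119191 and 75373 in log growth, against 8640.4, 8958 and 7950.4 in quiescent cells (log2 3.51 ± 0.41, adjusted p = 0.000459). PGI1, phosphoglucose isomerase, had 25052, 31805 and 31509 in log growth, against 2908, 2678 and 2692 in quiescent cells (log2 3.41 ± 0.29, adjusted p = 0.000137). In each of the 3 genes the quiescent libraries lay within 1.2-fold of each other. TDH3, the main glyceraldehyde-3-phosphate dehydrogenase, had 214386, 237058 and 188035 in log growth, against 30803, 32805 and 31082 in quiescent cells (log2 2.75 ± 0.53, adjusted p = 0.00378). Its close copy TDH2 had 67728, 19539 and 19378 in log growth, against 4268, 4403 and 3359 in quiescent cells (log2 2.89 ± 0.52, adjusted p = 0.00288; log2 2.29, adjusted p = 0.000105 without log growth replicate 1), and 18.9% of TDH2 stretches occur elsewhere. Of 14 genes of the path from pyruvate to ethanol and acetate, 4 rose, 3 fell and 7 did not pass, with counts of 5 and 6 without log growth replicate 1, and 4 and 4 with total-count scaling. ADH1, which makes ethanol, had 143680.0, 357796 and 309211 in log growth, against 29331, 28030.4 and 30089 in quiescent cells (log2 3.11 ± 0.60, adjusted p = 0.00395). PDC6, a minor pyruvate decarboxylase, had 58.9, 94 and 71.1 in log growth, against 1709, 919 and 1325 in quiescent cells (log2 -4.10 ± 0.31, adjusted p = 7.82e-05). The median of this list was 0.025 and its mean -0.42, and its median fell below 0 with total-count scaling.

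Genes for taking up and sensing hexoses rose and fell, with 54.2% called, beside 45.6% of all genes. Of 24 genes, 5 rose, 8 fell and 11 did not pass. The counts of risers and fallers were 9 and 8 without log growth replicate 1, and 5 and 14 with total-count scaling. HXT3, a low-affinity transporter for high glucose, had 19312, 33006 and 34512 in log growth, against 3515, 5198 and 4333 in quiescent cells (log2 2.71 ± 0.37, adjusted p = 0.000856). HXT5, a transporter of slowly growing and starved cells, had 287, 1462 and 1036 in log growth, against 22686, 17985 and 19369 in quiescent cells (log2 -4.71 ± 0.56, adjusted p = 0.000486; log2 -4.02, adjusted p = 2.59e-05 without log growth replicate 1). HXT10, another member of the family, had 36.5, 100.1 and 101 in log growth, against 809, 869 and 1027 in quiescent cells (log2 -3.62 ± 0.40, adjusted p = 0.000391). The pentose phosphate pathway, which supplies NADPH and ribose, split as well: of 13 genes, 4 rose, 4 fell and 5 did not pass, with 2 and 5 under total-count scaling. ZWF1, its first enzyme, had 254, 509 and 398 in log growth, against 12518, 6616 and 7993 in quiescent cells (log2 -4.55 ± 0.35, adjusted p = 8.4e-05). GND1, the next dehydrogenase, had 7405, 13850.4 and 12949.6 in log growth, against 1046, 1257 and 1015 in quiescent cells (log2 3.32 ± 0.31, adjusted p = 0.000208), and TKL1, transketolase, had 7809, 9410.2 and 9677 in log growth, against 1053, 662 and 644 in quiescent cells (log2 3.54 ± 0.28, adjusted p = 0.000101). Among the other members that fell were GND2 (log2 -3.30), TKL2 (log2 -1.85) and NQM1 (log2 -2.86), relatives of GND1, TKL1 and TAL1. NQM1 was log2 -1.71, adjusted p = 0.000465 without log growth replicate 1, and missed the threshold without quiescent replicate 1, 2 or 3 (adjusted p = 0.0531 to 0.08).

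Most genes for acetate use, the glyoxylate cycle and gluconeogenesis fell. Of 33 genes, 2 rose, 25 fell and 6 did not pass (median -2.94), beside a background of 22.8% called lower. Their reads made up 0.281% to 0.396% of the reads in log growth libraries, against 4.1% to 5.78% in quiescent libraries. The median was -3.98 within replicate 1 and -2.64 within replicates 2 and 3. ACS1, the acetyl-CoA synthetase of respiring cells, had 212, 361 and 324 in log growth, against 8564, 3226 and 3582 in quiescent cells (log2 -3.98 ± 0.41, adjusted p = 0.000293). ACS2, the synthetase of fermenting cells, which also supplies acetyl-CoA for histone acetylation, had 5373, 3692 and 4452 in log growth, against 599.7, 322 and 351 in quiescent cells (log2 3.45 ± 0.31, adjusted p = 0.000146). The pair thus moved in opposite directions, and no library of either group overlapped the other. IDP2, the cytosolic isocitrate dehydrogenase that yields NADPH, had 192, 396 and 352 in log growth, against 18424, 7023 and 7857 in quiescent cells (log2 -5.07 ± 0.44, adjusted p = 0.000137).

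Genes of peroxisomal β-oxidation, which shortens fatty acids to acetyl-CoA, mostly fell. Of 21 genes, 1 rose, 15 fell and 5 did not pass (median -2.57). POX1, the acyl-CoA oxidase, had 118, 147 and 154 in log growth, against 7483, 4406 and 4563 in quiescent cells (log2 -5.25 ± 0.28, adjusted p = 2.56e-05). SPS19, which handles unsaturated fatty acids, had 237, 289.8 and 290.3 in log growth, against 21277, 12512 and 13366 in quiescent cells (log2 -5.81 ± 0.28, adjusted p = 1.78e-05). Of 19 citric acid cycle genes, 2 rose, 2 fell and 15 did not pass. The share called, beside 45.6% of all genes, was 21.10%. Those that rose and fell numbered 3 and 5 without log growth replicate 1, and 1 and 8 with total-count scaling. CIT3, a mitochondrial citrate and methylcitrate synthase, had 161, 275 and 290.3 in log growth, against 5963, 5190.3 and 6243 in quiescent cells (log2 -4.62 ± 0.28, adjusted p = 3.84e-05).

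Respiratory genes are encoded in the nucleus and in the mitochondrion. Of 45 nuclear genes for the respiratory chain and ATP synthase, 21 rose, 3 fell and 21 did not pass (median 0.82). The count of risers was 13 when log growth replicate 2, log growth replicate 3 or quiescent replicate 3 was left out, 14 without quiescent replicate 2. Risers and fallers numbered 27 and 5 without log growth replicate 1, and 11 and 4 with total-count scaling. HAP4, the activating subunit of the factor that controls these genes, had 1898, 5699 and 5851 in log growth, against 955, 961 and 933 in quiescent cells (log2 2.07 ± 0.43, adjusted p = 0.00547). ATP19, an ATP synthase subunit, had 627, 1452 and 1553 in log growth, against 216, 251 and 247 in quiescent cells (log2 2.24 ± 0.36, adjusted p = 0.00178). NDE2, an external NADH dehydrogenase, had 95.4, 192 and 174 in log growth, against 27142, 6556 and 7527 in quiescent cells (log2 -6.22 ± 0.55, adjusted p = 0.000144; log2 -5.57, adjusted p = 0.000757 without quiescent replicate 1). Log growth replicate 1 had the lowest of the 3 log growth values for each of these genes. Of 8 mitochondrial messenger RNAs, 6 were tested and the others were below the limit on the mean. All 6 fell (median -4.86). OLI1, for an ATP synthase subunit, had 17.6, 15.5 and 30.7 in log growth, against 711, 681 and 1173 in quiescent cells (log2 -5.28 ± 0.36, adjusted p = 5.65e-05). COX2 had 2, 1 and 2 reads in log growth, against 13, 50 and 72 in quiescent cells, and COX3 had 1, 1 and 3 against 4, 32 and 44. From reads pooled per group, COX2 was 75.7-fold lower in log growth (95% counting interval 31.7-fold to 237-fold, without the spread between libraries). COB had 0, 1 and 1 reads in log growth, against 10, 68 and 55. COX2, COX3 and COB reached the limit on the mean only through libraries other than log growth. A fall was thus close to fixed in advance for them, and it is no separate support. Mitochondrial messenger RNAs lack the long poly(A) tails of nuclear messengers, and the libraries are labelled as polyA RNA.

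**Figure D3:**
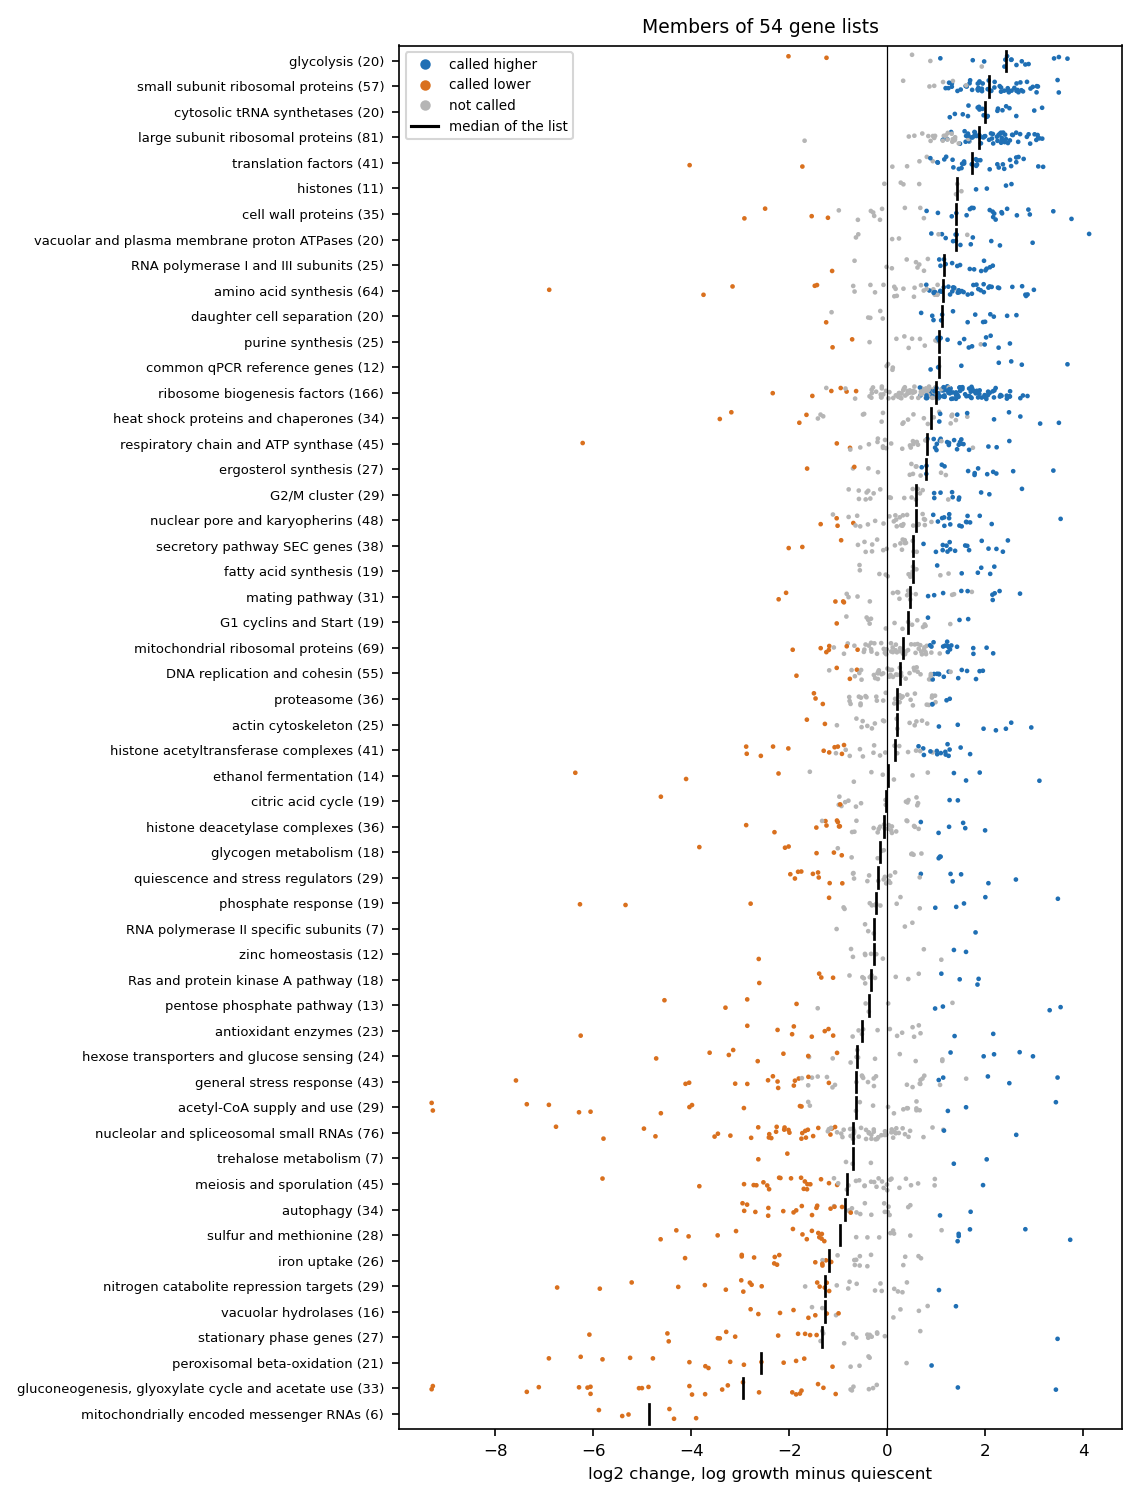
Log2 change (log growth minus quiescent) of each tested member of 54 gene lists, ordered by the list's median (black bar), with the number tested in brackets. Colour marks members called higher, called lower or not called. The medians of glycolysis, ribosomal protein and tRNA synthetase genes lie farthest to the right of 0, and those of acetate use, β-oxidation and mitochondrial messenger RNAs farthest to the left.

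Stress genes differed between the replicates of log growth. Of 43 general stress genes, 5 rose, 14 fell and 24 did not pass (median -0.63; 44.2% called, beside 45.6% of all genes). Those counts were 14 and 17 without log growth replicate 1, and 3 and 22 with total-count scaling, and the risers numbered 3 without log growth replicate 2 or 3 and 2 without quiescent replicate 2 or 3. The median was -2.15 within replicate 1 and -0.28 within replicates 2 and 3. MOH1 had 158, 319 and 190.0 in log growth, against 3459, 3581 and 4074 in quiescent cells (log2 -4.12 ± 0.30, adjusted p = 7.15e-05), and FMP16, a mitochondrial protein of stressed cells, had 232, 159 and 139 in log growth, against 5572, 1898 and 2199.6 in quiescent cells (log2 -4.04 ± 0.42, adjusted p = 0.00032). YGP1, a secreted glycoprotein made on starvation, had 6234, 7441 and 7829 in log growth, against 858, 564 and 538 in quiescent cells (log2 3.48 ± 0.27, adjusted p = 9.16e-05). STF2, which protects cells on drying, had 4525, 38496 and 35605 in log growth, against 2776, 3563 and 3497 in quiescent cells (log2 2.495 ± 0.76, adjusted p = 0.0278). Log growth replicate 1 lay close to the quiescent libraries for STF2, and the other log growth libraries about 10 times above them. STF2 no longer passed without log growth replicate 2 (adjusted p = 0.0875), log growth replicate 3 (0.0911) or any quiescent replicate (0.0593 to 0.1), and it was log2 3.51, adjusted p = 2.68e-05 without log growth replicate 1.

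The stress response element STRE (AGGGG on either strand), to which Msn2 and Msn4 bind, was in 62.8% of promoters of the general stress list, against 21.6% of 6020 promoters. That share was not the highest of the lists, with 75.0% for vacuolar hydrolases and 69.2% for the pentose phosphate pathway. STRE was in 15.3% of promoters of genes called higher and 28.5% of those called lower, at least 2-fold. Among genes called lower at least 8-fold the share was 24.4%, and in the stationary phase list 18.5%. Of the 15 largest decreases, YAR035C-A, YAT1, SFC1 and PUT4 hold STRE. Of the 15 largest increases, MCO14, BSC1, PGK1, YRB1, TKL1, CDC19 and RPS6A hold it. The element is shown for the first 2 of the largest decreases that hold it and for the 2 named stress genes that hold it. The match is in capitals, and CCCCT is the element on the other strand. MSN4 itself had 2034, 1738 and 2279 in log growth, against 377, 297 and 301 in quiescent cells (log2 2.63 ± 0.23, adjusted p = 0.000144) and was thus higher in log growth.
YAR035C-A, chrI:192593-192622, minus strand, STRE: ccatggtgtgtggAGGGGtgaaaggtgtac
YAT1, chrI:190161-190190, plus strand, STRE: ccacacccgcccaCCCCTcctttccgtata
MOH1, chrII:126579-126608, plus strand, STRE: cttccttatcctgCCCCTtatcactctgaa
FMP16, chrIV:588564-588593, minus strand, STRE: gttcctgtatcaaCCCCTtcttcctgtaca

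Of 27 stationary phase genes, 1 rose, 12 fell and 14 did not pass (median -1.32; 48.1% called, beside 45.6% of all genes). SPG4, needed for survival in stationary phase at high temperature, had 79.8, 3568 and 2023 in log growth, against 43690.3, 59951 and 68728 in quiescent cells (log2 -6.08 ± 1.23, adjusted p = 0.00472), and the log growth libraries spanned a more than 40-fold range. It was log2 -4.39, adjusted p = 5.1e-05 without log growth replicate 1, log2 -7.13, adjusted p = 0.0043 without log growth replicate 2 and log2 -6.72, adjusted p = 0.00945 without log growth replicate 3. SPG5, which regulates the proteasome in stationary phase, had 731, 1128 and 1192 in log growth, against 25405, 19411 and 21262 in quiescent cells (log2 -4.46 ± 0.30, adjusted p = 5.65e-05), with little spread in either group. Of 34 heat shock proteins and chaperones, 9 rose, 4 fell and 21 did not pass (median 0.89, 38.2% called). Without log growth replicate 1, 21 and 5 rose and fell. The risers numbered 6 without log growth replicate 2 or 3 or quiescent replicate 2 or 3. Their median was -0.16 within replicate 1 and 1.31 within replicates 2 and 3, and with total-count scaling 6 and 7 were higher and lower. SSA3, an Hsp70 induced in starved cells, had 582, 1491 and 1264 in log growth, against 19519, 7912 and 8667 in quiescent cells (log2 -3.42 ± 0.47, adjusted p = 0.000917). SSA2, a constitutive Hsp70, had 7554, 18430.5 and 12929 in log growth, against 1290.1, 2414 and 2017 in quiescent cells (log2 2.72 ± 0.40, adjusted p = 0.00124), with 52.2% of its stretches found elsewhere.

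Reserve carbohydrate genes rose and fell. Of 18 glycogen genes, 3 rose, 6 fell and 9 did not pass (median -0.15; 0.21 without log growth replicate 1). The counts of risers and fallers were 7 and 6 without log growth replicate 1, and 0 and 7 with total-count scaling. No risers were left without log growth replicate 3 or quiescent replicate 3, and 1 without quiescent replicate 2. SGA1, a glucoamylase of sporulating cells, had 58.2, 394 and 204 in log growth, against 2057, 2308 and 2927 in quiescent cells (log2 -3.83 ± 0.61, adjusted p = 0.00162; log2 -3.08, adjusted p = 0.000156 without log growth replicate 1 and log2 -4.45, adjusted p = 0.00144 without log growth replicate 2). PCL10, a cyclin whose kinase acts on glycogen synthase, had 306, 176 and 203 in log growth, against 1346, 776 and 809 in quiescent cells (log2 -2.08 ± 0.32, adjusted p = 0.00139). Of 7 trehalose genes, 2 rose, 2 fell and 3 did not pass (57.1% called). With total-count scaling, 1 and 3 rose and fell. The trehalases ATH1 and NTH2 fell (log2 -2.63 and -2.04, adjusted p = 0.00279 and 0.000894; ATH1 log2 -2.04, adjusted p = 0.000133 without log growth replicate 1). TPS2, which completes trehalose synthesis, had 3675, 12494 and 11897 in log growth, against 2022, 2109.6 and 1866 in quiescent cells (log2 2.03 ± 0.47, adjusted p = 0.00869).

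**Figure D4:**
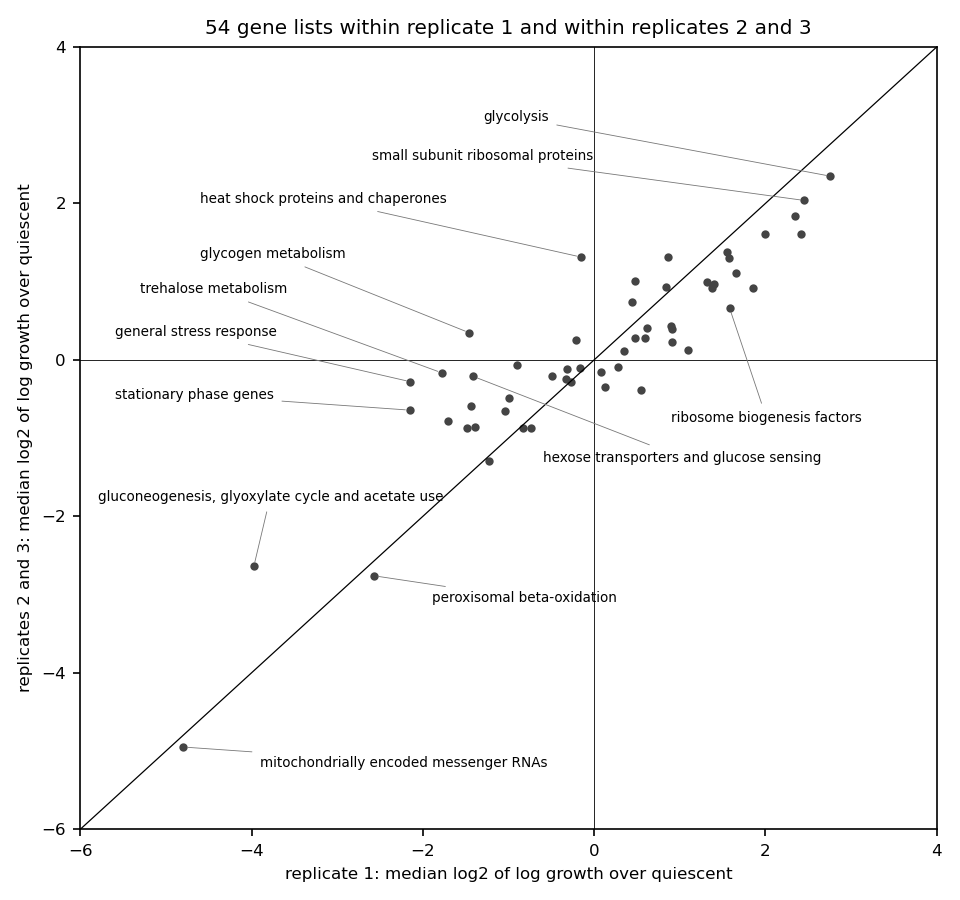
Median log2 of log growth over quiescent for 54 gene lists within replicate 1 (horizontal) and within replicates 2 and 3 (vertical). Each point is a list and the line marks equal medians. General stress, stationary phase, heat shock, glycogen and trehalose lists lie above the line, and ribosome biogenesis lies below it.

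Of 34 autophagy genes, 2 rose, 17 fell and 15 did not pass (median -0.85). ATG8, the protein that is attached to the growing autophagosome, had 458, 1349 and 1289.7 in log growth, against 6248, 7573 and 7292 in quiescent cells (log2 -2.92 ± 0.42, adjusted p = 0.00112). ATG32, the receptor for the removal of mitochondria, had 124, 178 and 138 in log growth, against 1220.4, 926 and 1047 in quiescent cells (log2 -2.86 ± 0.25, adjusted p = 0.000137), and ATG36, the receptor for peroxisomes, had 178, 160.4 and 172 in log growth, against 2099, 745 and 856 in quiescent cells (log2 -2.69 ± 0.39, adjusted p = 0.00109). Of 16 vacuolar hydrolases, 1 rose, 8 fell and 7 did not pass (median -1.28; 3 and 9 without log growth replicate 1), among the fallers the phosphatase PHO8 with 1005, 2009 and 1883 in log growth, against 12671, 8714 and 11319.6 in quiescent cells (log2 -2.79 ± 0.35, adjusted p = 0.000593). Of 36 proteasome genes, 4 rose, 3 fell and 29 did not pass (19.4% called). Their median was 0.21, and below 0 with total-count scaling, where 0 and 11 were called. Without log growth replicate 1 the proteasome counts were 15 and 7, and without any other library at most 1 member rose. PRE5, a core subunit, had 1911, 1182 and 1182 in log growth, against 4826, 3451 and 3589 in quiescent cells (log2 -1.49 ± 0.29, adjusted p = 0.00413). Of 23 antioxidant enzymes, 2 rose, 9 fell and 12 did not pass (median -0.51, 47.8% called). Without log growth replicate 1, 5 rose and 10 fell. The mitochondrial peroxiredoxin PRX1 had 1070.2, 1924 and 1691 in log growth, against 9415, 5894 and 6578 in quiescent cells (log2 -2.24 ± 0.33, adjusted p = 0.00112), and the cytosolic thioredoxin TRX1 had 2884, 4844 and 4689.8 in log growth, against 579, 1144 and 1089.6 in quiescent cells (log2 2.17 ± 0.35, adjusted p = 0.0018).

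Of 29 regulators of quiescence and stress, 6 rose, 9 fell and 14 did not pass (51.7% called, beside 45.6% of all genes). Those that rose and fell numbered 8 and 10 without log growth replicate 1, and 4 and 12 with total-count scaling. XBP1, a repressor of cell cycle genes in starved cells, had 114, 369 and 229 in log growth, against 739, 849 and 776 in quiescent cells (log2 -1.88 ± 0.40, adjusted p = 0.00615). DOT6, which represses ribosome biogenesis genes, had 609.5, 904 and 595 in log growth, against 2713, 2465 and 2998 in quiescent cells (log2 -1.98 ± 0.25, adjusted p = 0.000685). Of 18 genes of the Ras and protein kinase A pathway, which signals glucose, 4 rose, 4 fell and 10 did not pass, with counts of 5 and 6 without log growth replicate 1, and 4 and 8 with total-count scaling. The share called was 44.4%, beside 45.6% of all genes. RAS2 had 4945, 5874 and 6686 in log growth, against 1688, 1509 and 1566 in quiescent cells (log2 1.87 ± 0.25, adjusted p = 0.000746). GPA2, the G protein subunit that passes the glucose signal on, had 1699, 1323 and 1231 in log growth, against 16667, 5556 and 6812 in quiescent cells (log2 -2.61 ± 0.42, adjusted p = 0.00181). RAS2 and GPA2 thus moved in opposite directions.

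Of 64 amino acid synthesis genes, 39 rose, 5 fell and 20 did not pass (median 1.13), while 25 and 8 did so with total-count scaling. GDH1, the glutamate dehydrogenase of growing cells, had 24751, 8475 and 9032 in log growth, against 1764, 1551 and 1360.3 in quiescent cells (log2 3.00 ± 0.43, adjusted p = 0.00109). BAT1, the mitochondrial branched-chain aminotransferase, had 3520.4, 3015 and 3228 in log growth, against 656, 346 and 386 in quiescent cells (log2 2.87 ± 0.29, adjusted p = 0.000282), while its cytosolic counterpart BAT2 had 1256, 870.3 and 771 in log growth, against 15969.8, 9615 and 13362 in quiescent cells (log2 -3.75 ± 0.31, adjusted p = 0.000122). The site TGACTC, bound by the amino acid regulator Gcn4, was in 50.8% of promoters of this list, against 7.96% of all. It was in 8.14% of promoters of genes called higher and 10.4% of those called lower, at least 2-fold. Of 29 targets of nitrogen catabolite repression, 1 rose, 16 fell and 12 did not pass (median -1.27). DAL80, a GATA repressor of that system, had 55.5, 32.8 and 32.2 in log growth, against 2085, 2136 and 2812 in quiescent cells (log2 -5.87 ± 0.29, adjusted p = 1.9e-05). CAR2, for arginine breakdown, had 26.4, 88.8 and 48.6 in log growth, against 2713, 1503 and 1530.5 in quiescent cells (log2 -5.21 ± 0.45, adjusted p = 0.000137), and UGA4, a permease for γ-aminobutyrate, had 75.8, 70.7 and 69.6 in log growth, against 1667, 1181 and 1398 in quiescent cells (log2 -4.26 ± 0.23, adjusted p = 2.56e-05).

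Sulfur genes were mixed. Of 28 genes, 6 rose, 14 fell and 8 did not pass (median -0.96). MMP1, the permease for S-methylmethionine, had 73.7, 141 and 117 in log growth, against 3180.0, 2070.3 and 2833 in quiescent cells (log2 -4.62 ± 0.31, adjusted p = 5.58e-05), and MHT1, which turns that compound into methionine, had 29.8, 38 and 43.4 in log growth, against 921, 551 and 804 in quiescent cells (log2 -4.30 ± 0.29, adjusted p = 5.65e-05). SAH1 of the methyl cycle, in contrast, was among the largest increases. Of 25 purine genes, 13 rose, 2 fell and 10 did not pass (median 1.06), while 8 and 2 did so with total-count scaling. ADE13, adenylosuccinate lyase, had 22067, 3779 and 4697 in log growth, against 1604, 1137 and 1166 in quiescent cells (log2 2.51 ± 0.61, adjusted p = 0.0113; log2 1.71, adjusted p = 0.000517 without log growth replicate 1). GUA1, GMP synthase, had 6540.2, 5303 and 6602 in log growth, against 1674, 1251 and 1347 in quiescent cells (log2 2.11 ± 0.25, adjusted p = 0.000523).

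Membrane and wall genes are given next. Of 27 ergosterol genes, 14 rose, 2 fell and 11 did not pass (median 0.80), with counts of 18 and 5 without log growth replicate 1, and 10 and 3 with total-count scaling. ERG1, squalene epoxidase, had 6110.0, 5871 and 6191 in log growth, against 767, 497 and 499 in quiescent cells (log2 3.39 ± 0.26, adjusted p = 7.91e-05), and ERG11, the target of azole drugs, had 7587, 3031 and 3202 in log growth, against 1025, 628 and 539.7 in quiescent cells (log2 2.57 ± 0.42, adjusted p = 0.00178). Of 19 fatty acid synthesis genes, 6 rose, 0 fell and 13 did not pass (median 0.53), with counts of 9 and 0 without log growth replicate 1, and 5 and 2 with total-count scaling. The largest change in that list was that of IFA38, a reductase of fatty acid elongation (log2 2.19, adjusted p = 0.000666). Of 35 cell wall genes, 21 rose, 4 fell and 10 did not pass (median 1.41). GAS1, a glucan-elongating enzyme, had 18202, 10504 and 12179.8 in log growth, against 2204, 951 and 957 in quiescent cells (log2 3.39 ± 0.40, adjusted p = 0.000511), and DAN1, a mannoprotein of anaerobic cells, had 22.3, 68.1 and 60.6 in log growth, against 251, 382 and 439 in quiescent cells (log2 -2.91 ± 0.45, adjusted p = 0.00151). Of 20 proton ATPase genes, 14 rose, 0 fell and 6 did not pass (median 1.40), including PMP1 and PMP2, small partners of the pump Pma1 (log2 2.30 and 2.97, adjusted p = 0.00035 and 0.000378). Of 38 SEC genes of the secretory pathway, 17 rose, 3 fell and 18 did not pass. The counts of risers and fallers were 18 and 5 without log growth replicate 1, and 9 and 6 with total-count scaling. SEC28, of the COPI vesicle coat, had 2659, 6655 and 6719 in log growth, against 718, 951 and 1030.0 in quiescent cells (log2 2.47 ± 0.39, adjusted p = 0.00168).

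Metal and phosphate genes followed. Of 26 iron uptake genes, 0 rose, 13 fell and 13 did not pass (median -1.20), and without log growth replicate 1, 4 and 16 rose and fell. ARN2, a siderophore transporter, had 273, 1360.2 and 1344 in log growth, against 12309, 13948 and 15523 in quiescent cells (log2 -4.12 ± 0.59, adjusted p = 0.00105; log2 -3.36, adjusted p = 2.59e-05 without log growth replicate 1), and ARN1 had 218, 389 and 411 in log growth, against 3089, 1645 and 1961 in quiescent cells (log2 -2.72 ± 0.34, adjusted p = 0.000649). Of 12 zinc genes, 2 rose, 1 fell and 9 did not pass. Those that rose and fell numbered 2 and 4 without log growth replicate 1, and 2 and 4 with total-count scaling. ZAP1, the zinc-sensing activator, had 149, 137 and 91.3 in log growth, against 893, 649 and 764 in quiescent cells (log2 -2.62 ± 0.28, adjusted p = 0.00032). Of 19 phosphate genes, 5 rose, 4 fell and 10 did not pass (47.4% called, beside 45.6% of all genes). With total-count scaling, 3 and 8 rose and fell. SPL2, which restrains low-affinity phosphate uptake, had 20.3, 33.6 and 24.7 in log growth, against 851, 1126 and 1313 in quiescent cells (log2 -5.34 ± 0.30, adjusted p = 2.56e-05), and PHO3 had 4374, 4738 and 5810.5 in log growth, against 537, 372 and 426 in quiescent cells (log2 3.49 ± 0.25, adjusted p = 6.98e-05).

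Genes of division are given by phase, beside the 22.8% of all genes that rose. Of 20 genes that part mother and daughter, 14 rose, 1 fell and 5 did not pass (median 1.11), while 9 and 2 did so with total-count scaling. EGT2, a glucanase of early G1, had 2096, 2338 and 1593 in log growth, against 265, 322 and 375 in quiescent cells (log2 2.64 ± 0.25, adjusted p = 0.000224), and CTS1, the chitinase that cuts the septum, had 12038, 11916 and 13927 in log growth, against 4142, 2045 and 2540.1 in quiescent cells (log2 2.18 ± 0.34, adjusted p = 0.00145). Of 29 genes of the G2/M cluster, 10 rose, 0 fell and 19 did not pass (median 0.59), with counts of 11 and 3 without log growth replicate 1, and 6 and 6 with total-count scaling. The mitotic cyclin CLB2 had 652, 421 and 554 in log growth, against 105, 61.2 and 74.9 in quiescent cells (log2 2.75 ± 0.30, adjusted p = 0.000355). Of 19 genes of G1 and Start, 3 rose, 1 fell and 15 did not pass (median 0.43, below 0 with total-count scaling), with counts of 3 and 4 without log growth replicate 1, and 2 and 2 with total-count scaling. The G1 cyclin CLN2 had 1385, 851 and 774 in log growth, against 404, 299 and 347 in quiescent cells (log2 1.48 ± 0.29, adjusted p = 0.00396). Of 55 genes for DNA replication and cohesin, 13 rose, 4 fell and 38 did not pass (median 0.26, below 0 with total-count scaling). Those counts were 4 and 8 with total-count scaling, 15 and 14 without log growth replicate 1 and 8 and 1 without quiescent replicate 3, and at most 2 fell without any of the other 4 libraries. MCM5, a subunit of the replicative helicase, had 961, 1961 and 2299 in log growth, against 391, 465 and 468 in quiescent cells (log2 1.89 ± 0.34, adjusted p = 0.00303). Of 11 histone genes, 4 rose, 0 fell and 7 did not pass (median 1.43), and HTA2, a histone H2A gene, had 14489.6, 18097 and 22584 in log growth, against 2315, 3598 and 3619 in quiescent cells (log2 2.54 ± 0.33, adjusted p = 0.000746).

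The title of the series names the transfer of acetate between lysines of histones, so the enzymes of histone acetylation are given next. Of 41 genes for acetyltransferase complexes, 14 rose, 11 fell and 16 did not pass (61.0% called, beside 45.6% of all genes). Their median was 0.15 and the mean -0.12, and the median was below 0 without log growth replicate 1 and with total-count scaling, where 4 and 17 were higher and lower. Then 8 or 9 rose when any 1 library other than log growth replicate 1 was left out, and 7 fell without log growth replicate 3 or quiescent replicate 3. GCN5, the catalytic subunit of SAGA, had 1145, 1054 and 1178 in log growth, against 732, 672 and 759 in quiescent cells (log2 0.64 ± 0.21, adjusted p = 0.0359). ESA1, that of NuA4, had 569, 298 and 282 in log growth, against 969, 672 and 684 in quiescent cells (log2 -1.07 ± 0.33, adjusted p = 0.0279). Both calls were lost when any library but log growth replicate 1 was left out (adjusted p = 0.0518 to 0.142 for GCN5 and 0.0575 to 0.0969 for ESA1). With total-count scaling, GCN5 was log2 0.17, adjusted p = 0.559. EAF3, a subunit shared by NuA4 and the deacetylase complex of Rpd3, had 1417, 1659 and 2027 in log growth, against 18083, 9501 and 11013 in quiescent cells (log2 -2.88 ± 0.33, adjusted p = 0.000438). YNG1, of the NuA3 complex, had 438, 218 and 216 in log growth, against 1827, 1123 and 1289 in quiescent cells (log2 -2.33 ± 0.34, adjusted p = 0.00119). Of 36 genes for deacetylase complexes, 6 rose, 9 fell and 21 did not pass, and 6 fell without quiescent replicate 3. The share called was 41.7%, beside 45.6% of all genes. The counts of risers and fallers were 7 and 12 without log growth replicate 1, and 2 and 13 with total-count scaling. RPD3 had 921, 522 and 581 in log growth, against 983, 535 and 514 in quiescent cells (log2 0.015 ± 0.34, adjusted p = 0.975), and the deacetylase HDA1 had 737, 1029.9 and 1242 in log growth, against 251, 366 and 369 in quiescent cells (log2 1.60 ± 0.29, adjusted p = 0.00282). UME6, which brings Rpd3 to meiotic and metabolic genes, had 438, 520.1 and 412 in log growth, against 2929, 1946 and 1975 in quiescent cells (log2 -2.30 ± 0.25, adjusted p = 0.000381). Of 29 genes for the supply and use of acetyl-CoA, 3 rose, 12 fell and 14 did not pass (median -0.64, 51.7% called). Without log growth replicate 1, 6 rose and 14 fell. That list shares ADY2, YAT1, CRC1 and POT1 with the lists above.

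Genes of other cell states were examined as well. Of 45 meiosis and sporulation genes, 1 rose, 20 fell and 24 did not pass (median -0.82; 46.7% called, beside 45.6% of all genes). Without log growth replicate 1, 4 rose and 22 fell. DMC1, the meiotic recombinase, had 97.4, 173 and 162 in log growth, against 649, 917 and 1348 in quiescent cells (log2 -2.72 ± 0.35, adjusted p = 0.000669). These genes together held 0.0658% to 0.0718% of the reads in log growth libraries, against 0.356% to 0.425% in quiescent libraries. Of 31 mating genes, 10 rose, 5 fell and 16 did not pass (48.4% called), with 7 and 8 under total-count scaling. AGA1, an agglutinin anchor, had 1182, 1163 and 955 in log growth, against 216, 140.0 and 152 in quiescent cells (log2 2.71 ± 0.26, adjusted p = 0.000202). Of 25 actin cytoskeleton genes, 7 rose, 2 fell and 16 did not pass (36.0% called; median 0.21, below 0 with total-count scaling). The counts were 10 and 5 without log growth replicate 1, and 6 and 6 with total-count scaling. ACT1, actin itself, had 19575, 14451 and 17213 in log growth, against 4386, 2527 and 2259 in quiescent cells (log2 2.53 ± 0.35, adjusted p = 0.0009). Of 48 nuclear pore and transport genes, 17 rose, 4 fell and 27 did not pass (43.8% called). The counts were 19 and 7 without log growth replicate 1, and 13 and 11 with total-count scaling. YRB1, which helps to release cargo from exported complexes, had 13163, 26933 and 29765 in log growth, against 1659.7, 2171 and 1849 in quiescent cells (log2 3.54 ± 0.38, adjusted p = 0.000324). Of 76 small nucleolar and spliceosomal RNAs, 2 rose, 28 fell and 46 did not pass (median -0.70). LSR1, the U2 small nuclear RNA, had 172, 242 and 361 in log growth, against 15203, 12745 and 13288 in quiescent cells (log2 -5.79 ± 0.31, adjusted p = 2.56e-05), and, as with U4, its share in poly(A) libraries is unknown. Of 12 genes in common use as references for quantitative PCR, 7 rose, 0 fell and 5 did not pass (median 1.05), with 4 higher when quiescent replicate 2 or 3 was left out or with total-count scaling.

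In pairs of related genes, the ratio within a library depends little on its scaling. The ratio also holds the difference in gene length, which is the same in every library. Of 28 pairs, the ratio of the first to the second gene did not overlap between the groups in 22, being lower in log growth in 20 and higher in 2. Which gene of a pair comes first was chosen, and the split of 20 and 2 depends on that choice. Of all single genes, 59.0% did not overlap between the groups, and the share for other pairs was not computed. The exact permutation test, two-sided, gave p = 0.1 for each of the 22, the smallest that 3 against 3 libraries allow (0.127 adjusted over the 28 pairs). GDH3 over GDH1 had log2 ratios of -8.18, -5.40 and -6.94 in log growth, against 3.13, 2.77 and 3.27 in quiescent cells. ADH2 over ADH1 had -9.81, -9.70 and -9.92 in log growth, against 0.49, -0.87 and -0.62 in quiescent cells, with 11.8% of each gene's stretches also found elsewhere. ACS1 over ACS2 had -4.66, -3.35 and -3.78 in log growth, against 3.83, 3.32 and 3.35 in quiescent cells. In these 3 pairs the ratio was lower in every log growth library by more than 6 on the log2 scale.

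Further pairs concern transport, translation and DNA precursors. HXT5 over HXT3 was -5.21 ± 0.80 in log growth and 2.21 ± 0.45 in quiescent cells (mean log2 ratio ± SD, n = 3 each, exact permutation p = 0.1). BAT2 over BAT1 was -1.78 ± 0.29 in log growth and 4.84 ± 0.25 in quiescent cells. HEF3 over YEF3, the elongation factor 3 genes, was -6.96 ± 0.58 in log growth and -0.53 ± 0.55 in quiescent cells. RNR3 over RNR1, large subunits of ribonucleotide reductase, was -3.50 ± 0.85 in log growth and 1.53 ± 0.31 in quiescent cells. The 2 ratios that were higher in log growth were ANB1 over HYP2, the genes of initiation factor eIF5A, with -4.46 ± 0.42 in log growth and -5.98 ± 0.41 in quiescent cells, and GSY2 over GSY1, the glycogen synthases, with 0.87 ± 0.44 in log growth and -0.36 ± 0.018 in quiescent cells. Groups overlapped for ENO1 over ENO2, CYC7 over CYC1, COX5B over COX5A, HSP82 over HSC82, PGM2 over PGM1 and SOD2 over SOD1. For CYC7 over CYC1, the cytochrome c genes, the ratios were -3.17, 0.93 and 0.94 in log growth, against -0.61, -0.88 and -0.68 in quiescent cells. Log growth replicate 1 was thus below and replicates 2 and 3 above the quiescent libraries.

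**Figure D5:**
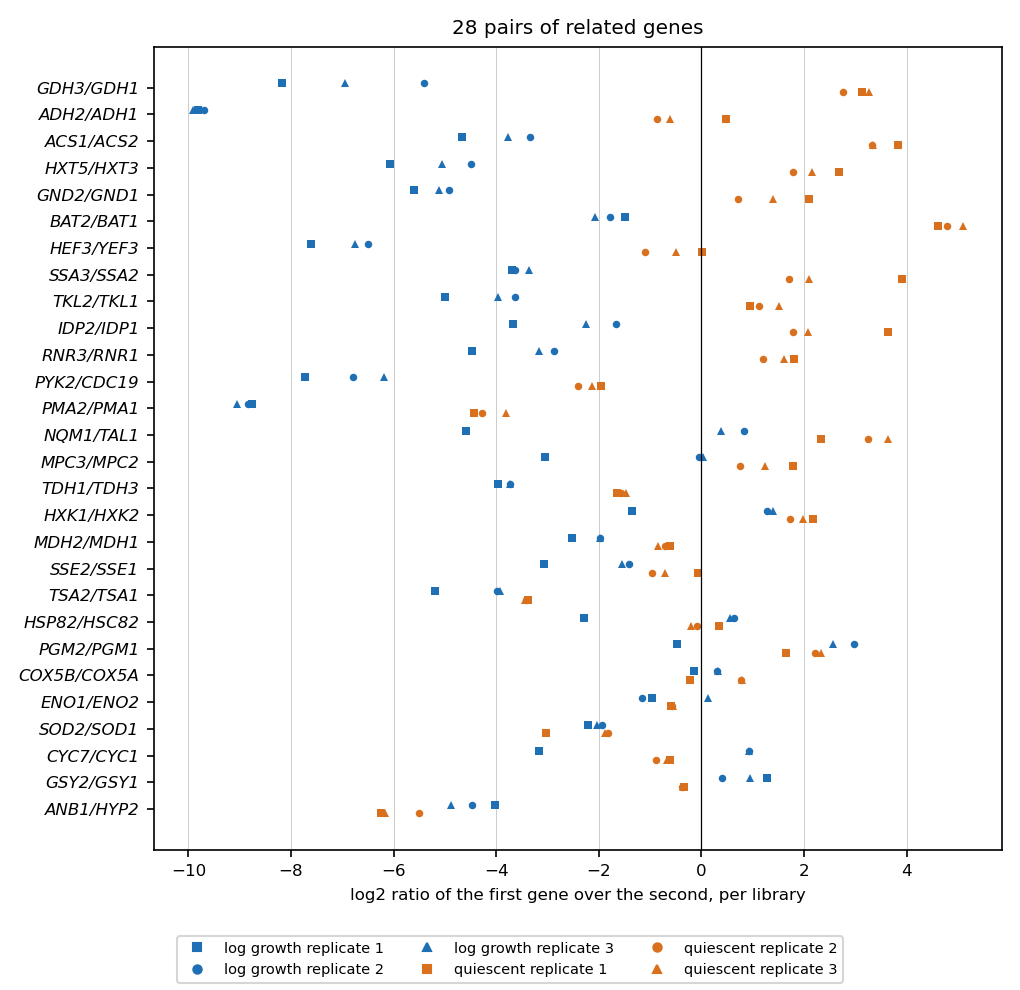
Log2 ratio of the first over the second gene of 28 pairs of related genes in each library, log growth in blue and quiescent in orange, with a symbol for each replicate number. The pairs run from the most negative difference between the groups at the top to the most positive at the bottom. Blue and orange points are apart in 22 pairs, and in several pairs the square of log growth replicate 1 lies left of the other 2 blue symbols.

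Log growth levels were also set against those of cells 240 min after return to medium. Log growth was tested against the 240 min libraries in 1 model of all 12 libraries, and 432 genes (7.36%) were called. Log growth libraries enter both comparisons, so the values are given side by side. On the log2 scale, with its standard error, ADY2 was -3.85 ± 0.41 against 240 min cells (adjusted p = 0.000659), beside -9.30 against quiescent cells. YAT1 was -3.91 ± 0.45 against 240 min cells (adjusted p = 0.000864), beside -9.27 against quiescent cells. YGP1 was 3.11 ± 0.31 higher than in 240 min cells (adjusted p = 0.000465), beside 3.48 against quiescent cells. MSN4 was 2.34 ± 0.47 higher than in 240 min cells (adjusted p = 0.0161), beside 2.63. ADY2 and YAT1 in 240 min cells thus lay between log growth and quiescent levels, with means of 2034 ± 616 and 1911 ± 428 (SD, n = 3). For YGP1 the 240 min mean was 852 ± 279 and for MSN4 491 ± 409, and neither 240 min level passed the test against quiescent cells (adjusted p = 0.332 and 0.613).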

How the data were processed

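RNA of log growth and quiescent cells, with 3 libraries each, was compared. Libraries, labelled as polyA RNA, were made with the NEBNext Ultra II kit from 1 ug of RNA purified by QIAzol and RNeasy, and read as 75 bp single ends, per the labels' protocols. The tools named are HTSeq 0.6.1, STAR 2.5.2a, bedtools, DESeq2 and DESeq, and the build sacCer3, per the submitters' processing notes. The use of strand in counting is not stated there. The deposited values are a normalised signal, that is, counts divided by 1 size factor per library. Dividing each column of the deposited signal by its smallest step gave whole reads for 100% of values (tolerance 1e-06), and size factors recomputed by the median of ratios equalled the deposited ones. Depth limits the precision most in quiescent replicate 1.

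Genes with a mean of at least 10 over 12 libraries were tested on log2(value + 1) with limma 3.58.1 (R 4.3.3), with an intensity trend and 4 residual degrees of freedom. On simulated data of 5871 genes with 200 changed for this comparison, limma recovered 14% of 2-fold and 90% of 4-fold changes and called 6 unchanged genes. Far fewer genes were changed there than the 45.6% called here, and no simulated library was set apart as log growth replicate 1 was. Recovery and false calls may thus differ in the real libraries. Alternatives were edgeR 4.0.16 and DESeq2 1.42.0 on the recovered reads, other pseudocounts (0.5 and 8), filters and scalings, library weights, a replicate block and libraries left out. Deviations from the group means of same-numbered libraries correlated across genes (0.31, 0.134 and 0.361), while log growth replicate 2 with quiescent replicate 3 gave 0.263 and log growth replicate 3 with quiescent replicate 2 gave 0.21. Replicate 1 of either group correlated negatively with replicates 2 and 3 of the other (-0.358 to -0.197). The values thus set replicate 1 apart from replicates 2 and 3, but do not clearly pair replicates 2 and 3 by number. The main test used the group only, and the replicate block was an alternative. No pair of libraries within a group agreed within sampling noise (chi-square per degree of freedom at least 7.31).

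Genes were named by rule. The 15 largest called changes each way without overlap were taken, where the higher group averaged at least 50. From each of the 54 gene lists, up to 4 called members with the largest changes and no overlap were taken. Lack of overlap in the largest changes and the list members was thus required in advance. Also named were 28 pairs of related genes, 6 genes of acetyl-CoA and histone acetylation, and the 5 largest changes each way against 240 min. The text gives a selection of these. The members and lists were chosen with earlier results of these data known. Of 6120 gene names, 6112 matched the R64 annotation.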

Additional observations from a re-analysis of the deposited data

Results flagged for a closer look

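Log growth was tested directly against the 240 min libraries as well as against quiescent cells, and the 5 largest changes each way among genes called the same way in both are given. YER053C-A was 3.35 higher in log growth than at 240 min on the log2 scale (adjusted p = 0.00769), and 1.96 higher than in quiescent cells (adjusted p = 0.0325). Its call against quiescent cells was lost without any 1 library other than log growth replicate 1 (adjusted p = 0.0536 to 0.116), as was that of YHR054C without log growth replicate 2 (adjusted p = 0.0645). The same tests for YGP1 gave 3.11 against 240 min, for YRO2 2.78, for STF2 2.75 (adjusted p = 0.0294) and for MSN4 2.34. LSO1, a small protein induced by iron shortage, was -5.15 against 240 min, and had 0, 7 and 1 reads in log growth, against 46, 103 and 62 in quiescent cells. From reads pooled per group, it was 74.0-fold lower in log growth than in quiescent cells. The 95% counting interval, 36.9-fold to 174-fold, leaves out the spread between libraries. Of its 8 log growth reads, 7 came from replicate 2, and its log2 change against quiescent cells was -5.62 without log growth replicate 1 and -7.03 without log growth replicate 2, beside -6.23 with all libraries. YAR035C-A was -4.62, YAT1 -3.91 and ADY2 -3.85 against 240 min. YHR054C was -3.03 against 240 min (adjusted p = 0.00596), but 100% of its stretches of 75 bases occur elsewhere in the genome, so its reads cannot be assigned with certainty.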

How the results depend on the processing

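The counts of 1339 genes higher and 1338 lower stayed within 1.5 times under the pooled 12-library model (1691 and 1635), edgeR with TMM (1454 and 1309), edgeR with DESeq2 size factors (1420 and 1337), DESeq2 (1522 and 1466), no filter, a mean of at least 50 and pseudocounts of 0.5 and 8. Leaving out 1 library gave 953 to 1764 higher and 1007 to 1728 lower. With the replicate block the counts were 1565 and 1512. Under the block GDB1 and MDH2 lost their calls, CYC7 and TAL1 gained one, and no other named gene changed its call. Total-count scaling gave 758 higher and 2054 lower, of which 617 and 1776 were at least 2-fold, and 19 lists with more higher and 30 with more lower calls, against 32 and 18. That scaling moves the median of all genes by construction. Library weights, which gave log growth replicate 1 0.0896 and quiescent replicate 1 0.245, called 2264 higher and 2155 lower (their estimation stopped before reaching its tolerance), and replicates 2 and 3 alone 2134 and 2029. The cause was not tested. No called gene that is named changed sign under any alternative run. Depth limits low genes most in quiescent replicate 1, where 1 read is 6.97 units.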
